A study of Arabidopsis thaliana with 9 samples.

Results

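Whole Arabidopsis thaliana seedlings grown with the compound Brz were compared with untreated seedlings of the same strain, the wild-type accession Col-0. Each group had 3 messenger RNA libraries, 6 of the 9 in the series. The other 3 libraries came from Col-0 seedlings overexpressing the microRNA gene MIR394A. They entered only the estimate of spread between replicates and, in the adjustment for transcript length described below, the mean of each gene. All seedlings were 5 days old and light-grown: seeds had 4 days at 4 °C and then 22 °C in days of 16 h light and 8 h dark, and treated seedlings had 2 µM Brz in the medium. Transcript levels were deposited as FPKM, fragment counts scaled for transcript length and library depth. Of 27647 loci in the table, 24331 had values, and the 17299 that reached 1 FPKM in 3 or more of the 6 libraries were compared. Separate growths for the replicates are not stated in the labels, and the p-values therefore describe the spread among these libraries, some of which may be technical.

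Brz is the usual abbreviation of brassinazole, which inhibits the cytochrome P450 enzyme DWF4 and so lowers the plant's brassinosteroids, steroid hormones that drive cell elongation. The hormone binds the receptor kinase BRI1 at the cell surface, which leads to inactivation of the kinase BIN2. The transcription factors BZR1 and BES1 then accumulate, switch on growth genes and switch off hormone synthesis genes such as DWF4 and CPD.

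Fitted depth lay between 21.6 and 22.0 M reads per library, estimated from the steps between low FPKM values. At least 1 FPKM was reached by 16931 to 17689 genes in untreated libraries and by 15936 to 17071 in treated ones. On the first principal component, which held 70.9% of the variance of the compared genes, untreated libraries lay between -43.2 and -34.7. Brz-treated replicates 2 and 3 lay at 53.8 and 52.9, whereas Brz-treated replicate 1 stood apart from them at 10.9. The Brz-treated libraries also carried a trend with transcript length. Taking each library against the mean of the other Col-0 libraries, Spearman's correlation of the difference with length was -0.13, -0.03 and 0.11 in untreated replicates 1 to 3, and -0.55, -0.67 and -0.70 in treated replicates 1 to 3. Over genes, which are not replicates of one another, the median log2 difference fell from 0.39 in the fifth of genes with the shortest transcripts to -0.73 in the fifth with the longest. Whether RNA quality, library preparation or the treatment moved with this trend was not tested.

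**Figure D1:**
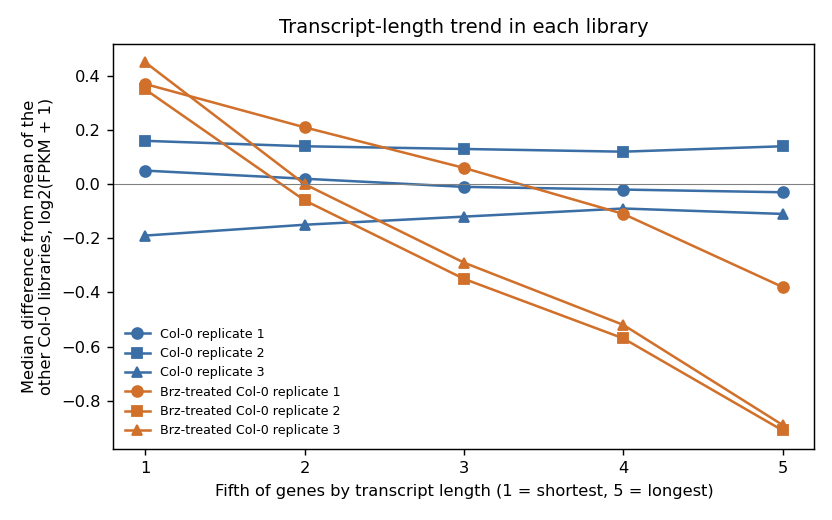
Median difference of each library from the mean of the other Col-0 libraries, in log2(FPKM + 1), against the fifth of genes by transcript length (1 is the shortest). Lines in blue are the 3 untreated libraries and stay between -0.19 and 0.16, and lines in orange are the 3 Brz-treated libraries and fall from between 0.35 and 0.45 to between -0.91 and -0.38.

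Genes were therefore compared on a pair of scales, log2(FPKM + 1) as deposited and the same values after a smooth trend on transcript length had been removed from each library (length-adjusted). The threshold was an adjusted p of 0.05, and a gene was called on both scales when both tests passed it in the same direction. As deposited, 2337 genes (13.5%) were higher and 5027 (29.1%) lower in Brz-treated seedlings. After length adjustment 2204 (12.7%) were higher and 1933 (11.2%) lower. On both scales 1320 (7.63%) were higher and 1440 (8.32%) lower, of which 210 and 231 differed by at least 1 on the length-adjusted log2 scale. Another 56 genes were called lower as deposited and higher after adjustment, and 0 the reverse (limma). The unadjusted p was under 0.05 for 8908 genes as deposited and 6650 after adjustment. The 3 treated libraries lay wholly above or below the 3 untreated ones for 50.3% of compared genes as deposited and 42.3% after adjustment, so a lack of overlap alone is common here.

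Counts rested on the scaling and on single libraries. The median log2 fold change of all compared genes was -0.22 as deposited and -0.007 after adjustment, and scaling libraries by median ratios gave 4135 higher and 3780 lower genes as deposited, 52.2% of calls higher in place of 31.7%. Without Brz-treated replicate 1, the as-deposited calls were 2320 higher and 7095 lower. Length-adjusted calls fell to 777 and 735 without Brz-treated replicate 2, and to 997 and 912 without replicate 3. Among the genes called on both scales, which replicate 1 helped to choose, its median length-adjusted difference from Col-0 was 0.47 for the higher genes and -0.59 for the lower genes, against 0.77 and -0.66 in the other 2 treated libraries. The stricter set of genes called on both scales whichever of the 6 libraries was left out held 445 higher (2.57%) and 436 lower (2.52%) genes, and is called the leave-one-out set below. Counts of list members called on both scales are to be read against the shares of all compared genes, 7.63% higher and 8.32% lower. For counts on 1 scale the shares are 13.5% higher and 29.1% lower as deposited, and 12.7% and 11.2% after adjustment.

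Of the 6 P450 enzymes of brassinosteroid synthesis, all with values and all compared, 3 were called higher on both scales (DWF4, CPD and BR6OX2) and none lower, and the median length-adjusted log2 fold change was 0.80. DWF4, which hydroxylates the side chain and is the enzyme that Brz inhibits, was at 4.14, 5.48 and 3.76 FPKM in the untreated libraries and at 13.3, 8.05 and 7.73 in the treated ones. Every treated library was above every untreated library, with treated replicate 1 the highest. The log2 fold change was 0.95 ± 0.23 (SE) as deposited and 1.59 ± 0.14 after adjustment, with adjusted p of 0.0069 and 0.0016, and the gene was in the leave-one-out set. BR6OX2, a late oxidase that makes the active hormone, rose from 8.81, 11.7 and 6.56 to 35, 20.8 and 18.9 FPKM, or by 1.65 ± 0.24 after adjustment (adjusted p = 0.0034), also in the leave-one-out set and without overlap.

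CPD, another of these P450 enzymes, was the most abundant of the 6 per length, at 110 ± 7.7 FPKM (SD, n = 3) in untreated and 155 ± 15 in treated libraries. Its log2 fold change was 0.48 ± 0.14 as deposited (adjusted p = 0.015) and 0.79 ± 0.16 after adjustment (adjusted p = 0.010). It was not called as deposited without Col-0 replicate 2 or without Brz-treated replicate 2. ROT3, of the same pathway, passed only after adjustment, with 0.80 ± 0.11 (adjusted p = 0.0030) against 0.32 ± 0.19 as deposited. CYP90D1 and BR6OX1 lay between 0.82 and 1.61 FPKM in the 6 libraries and passed neither test, with adjusted differences of 0.41 (adjusted p = 0.053) and 0.24 (adjusted p = 0.23). Of 10 genes for sterol synthesis and steroid reduction, HYD1, a sterol isomerase, rose from 50.9 ± 7.66 to 92.9 ± 1.95 FPKM and was in the leave-one-out set. DWF1, a sterol reductase, rose by 0.95 ± 0.20 after adjustment (adjusted p = 0.011), a call lost without Brz-treated replicate 2, and as deposited it was called in 2 of the 6 fits with a library left out. None of the other 8 was called on both scales.

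No inactivation or signalling gene was called higher on either scale. BAS1, a P450 that inactivates the hormone, was at 5.23, 6.5 and 6.76 FPKM in untreated and 2.93, 1.85 and 1.70 in treated libraries, without overlap. Its log2 fold change was -1.19 ± 0.19 as deposited and -0.76 ± 0.12 after adjustment (adjusted p = 0.0042), and it was the only 1 of 7 inactivation genes called on both scales. Of 13 signalling genes 10 were compared and all 10 were called lower as deposited, where 29.1% of all compared genes were. Their median log2 fold change was -0.81 and their median transcript length 2511 bases. After adjustment 3 of the 10 were called, against 11.2% of all compared genes. BIN2 fell from 120 ± 12.3 to 63.3 ± 7.44 FPKM (-0.59 ± 0.15 after adjustment, adjusted p = 0.020), BZR1 from 33.6 ± 4.58 to 19.0 ± 1.90 (-0.62 ± 0.18, adjusted p = 0.034) and BKI1, an inhibitor of the receptor, from 13.7 ± 0.49 to 8.24 ± 1.11 (-0.40 ± 0.12, adjusted p = 0.033). None of the 3 was in the leave-one-out set: with single libraries left out their adjusted values lay between -0.74 and -0.34, and the calls held in 3, 1 and 1 of the 6 fits. The receptor BRI1, with a transcript of 4375 bases, was at -1.36 as deposited (adjusted p = 0.00067) and -0.43 after adjustment (adjusted p = 0.13).

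Of 14 growth genes that brassinosteroids are known to raise, 7 fell on both scales and none rose, against 8.32% and 7.63% of all compared genes, and the median length-adjusted log2 fold change was -0.70. EXPA8, an expansin that loosens the cell wall, was at 161, 183 and 160 FPKM in untreated and 84.5, 89.1 and 76.2 in treated libraries (-1.04 ± 0.17 after adjustment, adjusted p = 0.0045). EXPA5, a second expansin, fell from 20 ± 1.65 to 10.1 ± 1.71 FPKM (-0.90 ± 0.18, adjusted p = 0.0081). EXO, an extracellular protein of leaf growth, was at 125, 165 and 176 FPKM in untreated and at 98.7, 79.2 and 90.4 in treated libraries, again without overlap. PRE6, a helix-loop-helix protein of the growth network, fell by 1.01 after adjustment (SE 0.13, adjusted p = 0.0029).

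IAA19, an auxin-response repressor of the Aux/IAA family, was at 22.9, 21.5 and 23.8 FPKM in untreated and 11.6, 11.9 and 9.63 in treated libraries. The log2 fold change was -0.98 ± 0.16 as deposited (adjusted p = 0.0011) and -1.26 ± 0.14 after adjustment (adjusted p = 0.0016). These 5 genes were in the leave-one-out set. PRE1, a relative of PRE6, and SAUR15, an auxin-induced growth gene, fell by 0.90 and by 1.31 after adjustment (SE 0.18 and 0.15, adjusted p = 0.0087 and 0.0021). As deposited SAUR15 was not called without Col-0 replicate 1, and PRE1 was called in 2 of the 6 fits with a library left out.

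The 250 bases before each annotated start were searched on both strands for CGTGTG and CGTGCG, elements that BZR1 is known to bind, and for CACGTG, the G-box. Of 17177 compared genes with such a window, 5.54% held CGTGTG, 1.68% CGTGCG and 7.39% CACGTG, and a site where CACGTG and CGTGTG overlap counts for both. Among genes called higher on both scales the shares were 5.32%, 2.74% and 7.11%, and among those called lower 4.93%, 1.04% and 6.32%. CGTGTG or CGTGCG stood in 3 of the 14 growth genes' windows and in 0 of those of the 6 synthesis enzymes. The share of all compared genes with a window was 6.97%, so 0 of 6 shows no difference from it. Sites outside the 250 bases were not searched. The window of IAA19 held both CGTGTG and CACGTG and is shown for that reason, from RefSeq TAIR10.1, plus strand, chr3:5263751-5264000, with both motifs in capitals.
IAA19: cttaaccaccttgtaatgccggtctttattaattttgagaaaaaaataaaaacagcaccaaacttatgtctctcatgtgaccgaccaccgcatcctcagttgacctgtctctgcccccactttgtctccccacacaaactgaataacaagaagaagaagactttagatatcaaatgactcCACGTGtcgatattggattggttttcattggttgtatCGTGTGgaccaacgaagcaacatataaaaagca
A match is a description of the sequence and not of binding.

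**Figure D2:**
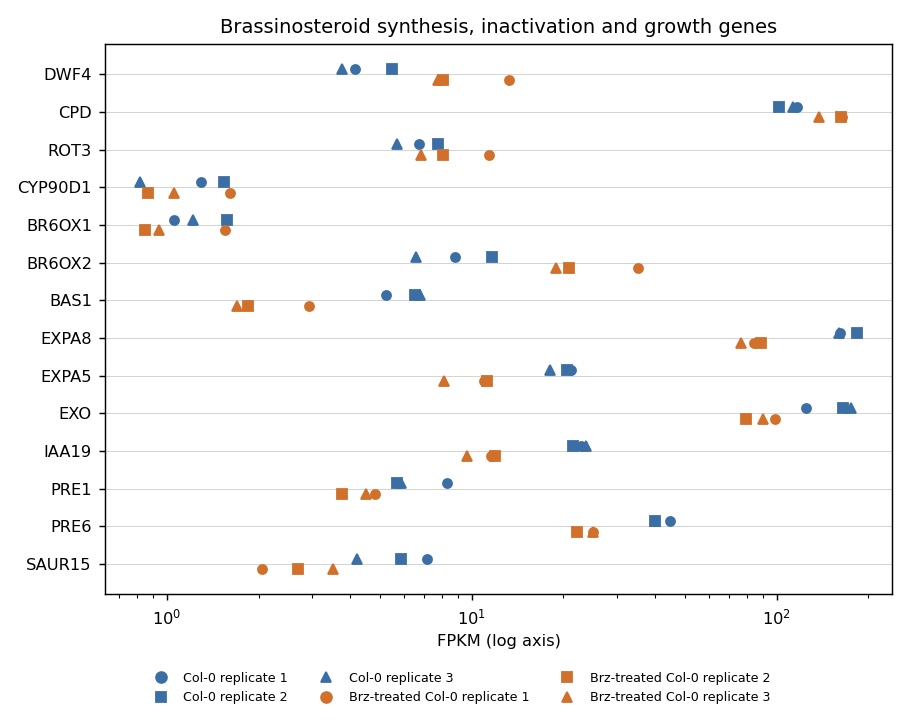
FPKM in each of the 6 libraries, on a log axis, for 14 genes of brassinosteroid synthesis (DWF4 to BR6OX2), inactivation (BAS1) and growth. Blue symbols are untreated and orange symbols Brz-treated libraries, and the symbol shape is the replicate. The groups do not overlap for DWF4, CPD, BR6OX2, BAS1 or the 7 growth genes.

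SAUR genes, small auxin-induced proteins that promote elongation, were mostly lower after length adjustment. Of 19 compared, 7 fell and 1 rose on both scales. After adjustment 14, those 7 included, were called lower, against 11.2% of all compared genes. SAUR62 was at 24.6, 23.8 and 15.1 FPKM in untreated and 6.84, 5.82 and 6.57 in treated libraries, a log2 fold change of -1.55 ± 0.18 as deposited and -1.97 ± 0.13 after adjustment (adjusted p = 0.00021). SAUR10 fell from 3.97 ± 0.777 to 1.01 ± 0.0346 FPKM and SAUR9 from 3.43 ± 0.288 to 1.53 ± 0.0451. SAUR50 went the other way, from 36.3, 35.5 and 36.5 to 64.7, 96.3 and 85.5 FPKM (0.77 ± 0.16 after adjustment, adjusted p = 0.0099). SAUR62, SAUR10, SAUR9 and SAUR50 were in the leave-one-out set. Several of these genes are tandem copies whose reads the counting could have split. Their transcripts are short, with a median of 817 bases, so the adjustment moved the list's median log2 fold change from -0.21 to -0.75.

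Expansins divided. Of 14 compared, EXPA4, EXPA6 and EXPA14 rose on both scales, in addition to the fall of EXPA5 and EXPA8. EXPA4 was at 54.2, 62.3 and 71.4 FPKM in untreated and 94.1, 97.9 and 89.0 in treated libraries, and EXPA6 at 93.0 ± 7.84 and 135 ± 10. The length-adjusted increases of the 3 were 0.66 to 0.74. With 1 library left out the adjusted values lay between 0.52 and 0.86. The adjusted calls of all 3 were lost without Col-0 replicate 1, Brz-treated replicate 2 or Brz-treated replicate 3, and that of EXPA14 also without Col-0 replicate 2.

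Of 10 compared genes for structural wall proteins, 5 fell on both scales and none rose, with a median length-adjusted log2 fold change of -1.08. PRP4, a proline-rich wall protein, was at 1279, 1099 and 1887 FPKM in untreated and 297, 371 and 318 in treated libraries, a log2 fold change of -2.08 ± 0.25 as deposited and -1.76 ± 0.33 after adjustment (adjusted p = 0.0076). PRP2, its relative, fell from 151 ± 45.5 to 59.1 ± 2.05 FPKM. The leucine-rich repeat gene AT3G24480 was at 57.7, 51.9 and 87.7 in untreated and 11.0, 16.6 and 12.7 in treated libraries (-2.01 ± 0.35 after adjustment, adjusted p = 0.0058). Untreated replicate 3 was the highest library for all 3 genes, and all 3 were in the leave-one-out set. LRX3, an extensin with leucine-rich repeats, fell by 1.46 after adjustment (SE 0.36, adjusted p = 0.019), a call lost without Col-0 replicate 3.

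Cellulose, xylem and lignin genes were called in both directions. All but 1 of 9 primary-wall cellulose genes were called lower as deposited (29.1% of all compared genes were). However, their median transcript length was 4138 bases. On both scales CESA2, CESA5 and CESA6, subunits of the primary-wall cellulose synthase, fell. CESA5 was at 18.0 ± 1.24 FPKM in untreated and 5.73 ± 1.37 in treated libraries, -1.52 as deposited and -0.62 ± 0.14 after adjustment (adjusted p = 0.015). That adjusted call was lost without Col-0 replicate 3 or Brz-treated replicate 3, the one of CESA2 without Brz-treated replicate 2, and the one of CESA6 in each of the 6 fits with a library left out. Of 13 xylem and secondary-wall genes, LAC4, LAC17 and XCP2 fell. LAC17, a laccase of lignin polymerization, was at 10.6, 10.8 and 11.7 FPKM in untreated and 5.15, 2.65 and 2.84 in treated libraries (-1.08 ± 0.15 after adjustment, adjusted p = 0.0030), and was in the leave-one-out set. The adjusted call of XCP2 was lost in each of the 6 fits with a library left out, and that of LAC4 in 4 of them, without Col-0 replicate 3 or any 1 treated library. Of 13 lignin and phenylpropanoid genes 2 rose and 1 fell. CAD5, an alcohol dehydrogenase of lignin synthesis, was at 40.6 ± 9.14 and 66.5 ± 2.36 FPKM (0.87 ± 0.19 after adjustment, adjusted p = 0.012), and CCoAOMT1, a methyltransferase of the pathway, at 333 ± 57.3 and 492 ± 27.1 (0.68 ± 0.15, adjusted p = 0.012). COMT1, another methyltransferase, fell from 176 ± 16.4 to 117 ± 28 FPKM. None of these 3 was in the leave-one-out set. The peptide gene RALF23, a growth-inhibiting ligand of the receptor kinase FERONIA, rose from 136, 130 and 155 to 245, 445 and 351 FPKM (1.59 ± 0.28 after adjustment, adjusted p = 0.0058). FER itself, the FERONIA gene, was lower as deposited (-0.85 ± 0.18, adjusted p = 0.0040) and at -0.13 after adjustment (adjusted p = 0.47).

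**Figure D3:**
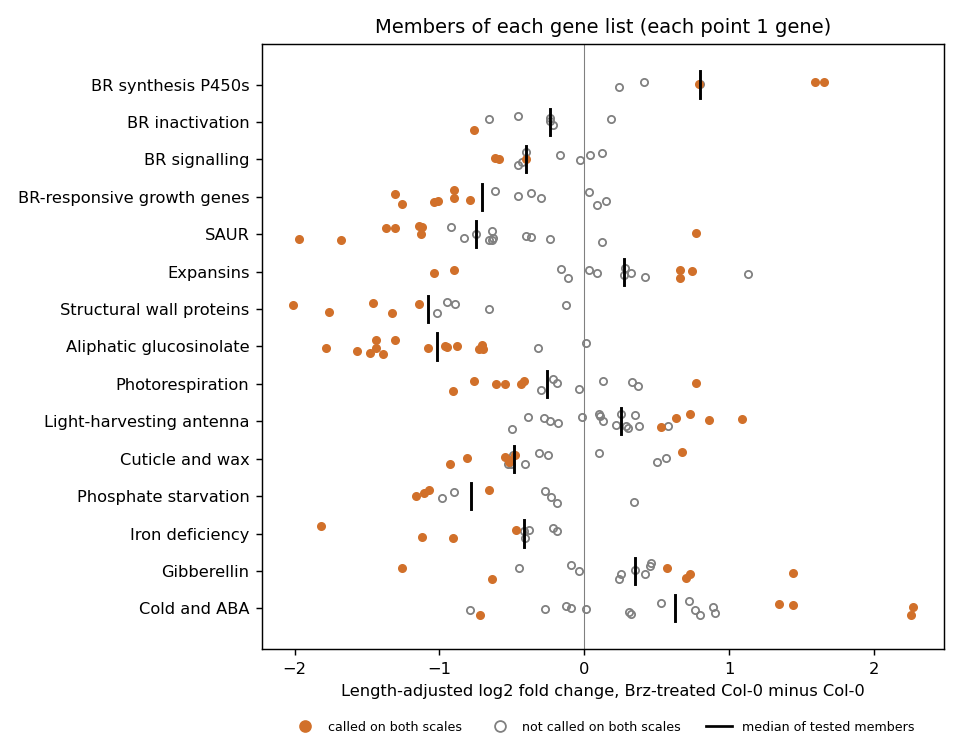
Length-adjusted log2 fold change (Brz-treated minus untreated Col-0) of every compared member of 15 gene lists, each point 1 gene. Filled points were called on both scales and bars mark list medians, which run from -1.08 for structural wall proteins and -1.02 for aliphatic glucosinolate genes to 0.80 for brassinosteroid synthesis P450s.

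Genes for aliphatic glucosinolates, methionine-derived defence compounds of the cabbage family, were lower nearly throughout. Of 16, all compared, 14 fell on both scales and none rose, 13 of them in the leave-one-out set, where 2.52% of all compared genes were. The median log2 fold change was -1.28 as deposited and -1.02 after adjustment. CYP79F1, which commits chain-elongated methionine to the pathway, was at 16.2, 16.9 and 15.2 FPKM in untreated and 3.01, 1.28 and 2.71 in treated libraries (-2.40 ± 0.21 as deposited, -1.78 ± 0.17 after adjustment, adjusted p = 0.0016). Its neighbour and near copy CYP79F2 fell from 20.1 ± 2.66 to 5.38 ± 1.39 FPKM, and reads may have been split between the pair.

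MAM1, which begins the elongation of methionine, was at 61.2, 57.6 and 51.5 FPKM in untreated and 17.1, 11.5 and 15.8 in treated libraries. IPMI1 and IPMI2, isomerase subunits of the same cycle, fell from 44.5 ± 5.72 to 17.1 ± 3.28 and from 77.4 ± 6.74 to 31.5 ± 10.3 FPKM, both by 1.44 after adjustment. The groups did not overlap for these genes. BAT5, a transporter of the chain-elongation intermediates, was at 5.97 ± 0.771 and 1.43 ± 0.134 FPKM, and SOT18, a sulfotransferase of the last step of the core structure, at 50.8 ± 4.52 and 20 ± 2.82. Of the regulators, MYB28 fell from 22.9, 21.7 and 18.1 to 15, 7.77 and 8.23 FPKM (-0.70 ± 0.14 after adjustment, adjusted p = 0.0080) and MYB29 from 4.60 ± 1.29 to 1.53 ± 0.794 (-0.95 ± 0.18, adjusted p = 0.0077). The 2 members not called were MAM3, at 0.01 after adjustment (adjusted p = 0.98), and BCAT4, at -0.32 (adjusted p = 0.37), which act beside MAM1 in chain elongation and before it. Of 9 compared genes of indole glucosinolates and the shared core, SUR1 and UGT74B1, enzymes that both branches share, fell from 45.9 ± 6.28 to 16.9 ± 2.31 and from 40 ± 3.48 to 18.7 ± 3.03 FPKM, both in the leave-one-out set, and none rose.

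**Figure D4:**
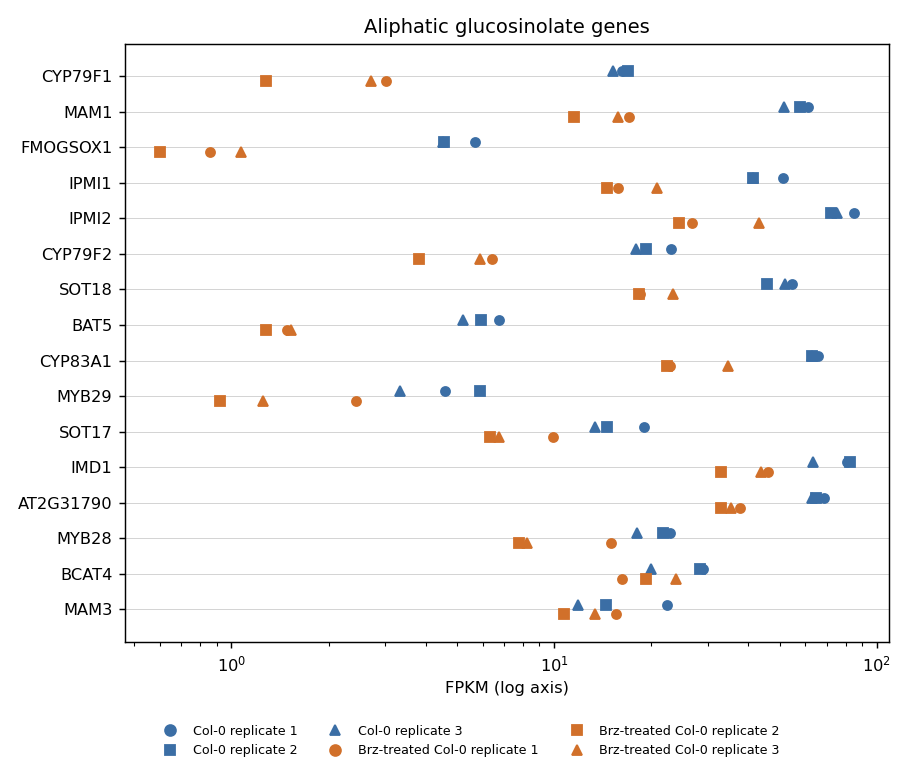
FPKM in each of the 6 libraries, on a log axis, for the 16 aliphatic glucosinolate genes, ordered by length-adjusted log2 fold change. Blue symbols are untreated and orange symbols Brz-treated libraries. The groups stand apart from CYP79F1 at the top, at -1.78, to MYB28, at -0.70, and overlap for BCAT4 and MAM3.

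In photosynthesis the lists moved in both directions. Of 21 light-harvesting antenna genes 5 rose on both scales and none fell. CAB2, a major antenna protein of photosystem II, was at 5906, 4893 and 5534 FPKM in untreated and 9318, 14673 and 12420 in treated libraries (1.09 ± 0.22 after adjustment, adjusted p = 0.010), and was in the leave-one-out set, although reads of its near copies may have been split. CAB3, LHCB5 and LHCA3 rose by 0.53 to 0.86 after adjustment, and these adjusted calls were lost without Brz-treated replicate 2 or 3, and for LHCB5 and LHCA3 also without Col-0 replicate 1 or 2. The adjusted value of LHCB5 turned to -0.02 with quantile normalization. Of 26 nuclear photosystem genes 6 rose and 4 fell. PSAN, a photosystem I subunit, rose from 1907, 2076 and 1579 to 3134, 4297 and 3822 FPKM and was in the leave-one-out set, whereas PSAD2, another subunit, fell from 1982 ± 139 to 1524 ± 129 FPKM (-0.70 ± 0.17 after adjustment, adjusted p = 0.018, lost without Col-0 replicate 3 or Brz-treated replicate 2).

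Photorespiration recycles the product of Rubisco's reaction with oxygen, and 6 of its 14 genes fell and 1 rose on both scales. GLDP1 and GLDP2, the P-proteins of glycine decarboxylase, were in the leave-one-out set. The other genes that fell were GOX2, SHM1, HPR and CAT2. With a library left out, their adjusted calls held in 3, 2, 2 and 1 of the 6 fits. GLDP1 was at 742, 952 and 996 FPKM in untreated and 271, 261 and 278 in treated libraries, -1.72 ± 0.15 as deposited and -0.91 ± 0.19 after adjustment (adjusted p = 0.011). GLDP2 fell from 217 ± 17.5 to 69.5 ± 5.57 FPKM, or by 0.76 after adjustment (SE 0.16, adjusted p = 0.0099). AGT, a peroxisomal aminotransferase of the same pathway, was at 1326 ± 71.7 and 1781 ± 229 FPKM (0.77 ± 0.20 after adjustment, adjusted p = 0.022), a call lost without Col-0 replicate 1 or 2 and without Brz-treated replicate 2 or 3. In the Calvin cycle 3 of 20 genes rose and 3 fell. PRK, which makes the acceptor of carbon dioxide, was at 876, 968 and 901 FPKM in untreated and 499, 363 and 423 in treated libraries (-0.81 ± 0.11 after adjustment, adjusted p = 0.0030). Of 15 compared chlorophyll synthesis genes 3 fell and none rose. CHLD, a subunit of magnesium chelatase, was at 52.5 ± 2.61 and 24.7 ± 5.15 FPKM and in the leave-one-out set (-0.49 ± 0.10 after adjustment, adjusted p = 0.0097).

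The glyoxylate cycle, which turns seed oil into sugar, had some of the largest increases. ICL, isocitrate lyase, was at 30.5, 25.4 and 24.7 FPKM in untreated and 154, 110 and 134 in treated libraries, a log2 fold change of 2.25 ± 0.40 as deposited and 2.69 ± 0.42 after adjustment (adjusted p = 0.0042). MLS, malate synthase, was at 2.97, 3.78 and 3.58 FPKM in untreated and 17.8, 10.1 and 8.08 in treated libraries. Its adjusted increase of 1.84 ± 0.42 (adjusted p = 0.015) was not called without Brz-treated replicate 2 (adjusted p = 0.056), and its increase of 1.48 as deposited was not called without Brz-treated replicate 1 (1.18). KAT2, the thiolase of fatty acid breakdown in peroxisomes, rose from 76.5 ± 2.28 to 109 ± 2.93 FPKM. ICL and KAT2 were in the leave-one-out set, and the groups did not overlap for any of the 3. Of the 17 genes of oil breakdown and the glyoxylate cycle, only LACS6, an acyl-CoA synthetase, was called lower on both scales (-0.33 ± 0.10 after adjustment). Beside these values stand those of stored-seed transcripts, where 5 of 16 seed storage genes passed the filter on low values. The summed FPKM of 5 seed markers was 0.89, 1.17 and 1.15 in untreated and 2.53, 10.1 and 2.63 in treated libraries. Of the 5 markers 2 were under 1 FPKM in all 6. The marker CRA1 was at 5.44 FPKM in treated replicate 2, the library with the highest sum. It passed the filter only through the treated libraries, so its value is no support. The part of stored-seed transcripts in the result was not tested.

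Hormone responses other than brassinosteroid's differed by gene. In the gibberellin list of 15, 4 genes rose and 2 fell. GASA4, a gibberellin-induced cysteine-rich peptide, was at 153, 166 and 127 FPKM in untreated and 517, 575 and 562 in treated libraries, with log2 fold changes of 1.89 ± 0.13 and 1.44 ± 0.10 after adjustment (adjusted p = 0.00021), in the leave-one-out set. Its relative GASA14 fell from 124 ± 14.3 to 41.4 ± 5.94 FPKM (-1.26 ± 0.35 after adjustment, adjusted p = 0.03), but that call held only without Col-0 replicate 2. Of 9 compared type-A response regulators, which are induced by cytokinin, ARR3 and ARR4 rose. ARR3 was at 0.57, 1.97 and 1.47 FPKM in untreated and 4.72, 5.86 and 8.63 in treated libraries (1.63 ± 0.27 after adjustment, adjusted p = 0.0049, leave-one-out set). The adjusted call of ARR4 was lost without Brz-treated replicate 2.

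Of 11 compared jasmonate genes 4 fell and none rose. AOC1 and AOC2, near-identical copies of an enzyme of jasmonate synthesis, fell from 14.7 ± 4.99 to 7.37 ± 0.879 and from 14.1 ± 5.13 to 5.79 ± 1.27 FPKM, by 1.0 and by 1.18 after adjustment (adjusted p = 0.0077 and 0.0041), and both were in the leave-one-out set. Of 14 compared early auxin-response genes, IAA3, IAA5, IAA14 and IAA19 fell and none rose. The adjusted call of IAA14 (-0.32) was lost in each of the 6 fits with a library left out, and IAA3 was not called as deposited without Col-0 replicate 2 or Brz-treated replicate 2 or 3. IAA5 was at 3.06 ± 0.539 and 1.81 ± 0.420 FPKM (-0.99 ± 0.14 after adjustment, adjusted p = 0.0032), and as deposited it was not called without Col-0 replicate 1 or 2 or Brz-treated replicate 2. In the ethylene list of 11 compared genes none was called on both scales (limma), with 4 lower as deposited and 1 higher after adjustment. The latter was EBF2, whose protein removes the ethylene transcription factors, at 0.39 ± 0.16 as deposited (adjusted p = 0.063) and 1.06 ± 0.23 after adjustment (adjusted p = 0.011).

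Among 27 light-signalling factors 3 rose (HY5, BBX20 and GATA2) and 3 fell (BBX21, BBX24 and CGA1), shares near the 7.63% and 8.32% of all compared genes. GATA2, a transcription factor of light-driven development, was at 10.6, 10.5 and 12.1 FPKM in untreated and 21.6, 22.3 and 21.0 in treated libraries (0.88 ± 0.18 after adjustment, adjusted p = 0.0092). BBX20, a B-box factor also named BZS1, rose from 2.66 ± 0.668 to 6.56 ± 1.29 FPKM, and CGA1, a GATA factor of greening, fell from 6.83 ± 1.52 to 2.33 ± 1.05. These 3 were in the leave-one-out set. HY5, which promotes light-grown form, was at 15 ± 3.18 and 24.2 ± 2.11 FPKM (0.52 ± 0.15 after adjustment, adjusted p = 0.035), and its adjusted call was lost without Col-0 replicate 1 or 3 and without Brz-treated replicate 2 or 3.

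Cold and abscisic acid response genes included some of the largest increases. Of 18 compared, 4 rose (KIN1, KIN2, RD26 and HAI1) and RD22 fell. HAI1, a protein phosphatase, was at 1.02 as deposited and 1.34 after adjustment, and at 0.53 and 0.85 without Col-0 replicate 1. Its calls were lost in 4 of the 6 fits with a library left out as deposited (without Col-0 replicate 1 or any 1 treated library) and in 2 after adjustment (without Brz-treated replicate 2 or 3). KIN2, a small cold-induced protein, was at 19.9, 98.1 and 59.2 FPKM in untreated and 238, 391 and 398 in treated libraries (2.74 ± 0.48 as deposited, 2.25 ± 0.50 after adjustment, adjusted p = 0.013). KIN1 was at 5.40, 24.5 and 12.7 and at 73.3, 76.4 and 103 FPKM (2.27 ± 0.51 after adjustment, adjusted p = 0.014). Untreated replicate 1 was the lowest library for both. The length-adjusted calls were lost without Brz-treated replicate 2 (2.13 for KIN2 and 2.32 for KIN1), and for KIN1 also without replicate 3 (2.15). RD26, a NAC transcription factor, rose from 22.0 ± 11.5 to 47.6 ± 5.52 FPKM and was in the leave-one-out set. COR15A and CBF3, a cold-induced protein and a cold regulator, were below 1 FPKM in all 6 libraries.

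KIN1 and KIN2 are neighbours on chromosome 5 and near copies, so reads may have been split between them. Their windows of 250 bases before the start share an identical run of 37 bases, given in capitals to show how alike the pair is, from RefSeq TAIR10.1, plus strand, chr5:5209467-5209716 for KIN1 and chr5:5211469-5211718 for KIN2.
KIN1: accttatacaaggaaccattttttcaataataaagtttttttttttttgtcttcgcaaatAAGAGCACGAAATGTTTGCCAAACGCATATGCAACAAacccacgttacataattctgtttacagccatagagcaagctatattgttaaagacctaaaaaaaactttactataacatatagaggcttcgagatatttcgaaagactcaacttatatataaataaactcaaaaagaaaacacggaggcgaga
KIN2: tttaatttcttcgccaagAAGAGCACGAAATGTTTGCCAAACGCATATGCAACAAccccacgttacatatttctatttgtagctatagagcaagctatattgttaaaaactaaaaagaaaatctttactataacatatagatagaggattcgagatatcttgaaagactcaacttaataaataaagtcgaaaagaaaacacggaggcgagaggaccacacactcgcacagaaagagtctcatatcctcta
Neither window held any of the motifs searched above. The run began 190 bases before the start in KIN1 and 232 in KIN2.

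Of 6 compared antioxidant genes 1 rose and 1 fell. FSD1, the iron enzyme of the chloroplast, was at 924, 1033 and 889 FPKM in untreated and 2035, 2931 and 2898 in treated libraries (1.38 ± 0.19 after adjustment, adjusted p = 0.0032). CSD2, the copper-zinc enzyme of the chloroplast, was at 166, 126 and 155 and at 75.4, 58.5 and 53.7 FPKM (-1.49 ± 0.22, adjusted p = 0.0035). Both were in the leave-one-out set, and neither showed overlap between groups. CSD1, another copper-zinc superoxide dismutase, was not called, at -0.18 as deposited (adjusted p = 0.59) and -0.56 after adjustment (adjusted p = 0.095). SAG21, a stress and senescence gene, rose from 528, 314 and 391 to 1207, 1791 and 1287 FPKM (1.47 ± 0.33, adjusted p = 0.013), a call lost without Brz-treated replicate 2.

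Mineral nutrition lists held more lower than higher calls, apart from ferritin and sulphur. Of 9 compared iron-deficiency genes 4 were called lower on both scales and none higher, while FER1 and FER4, which encode the iron-storage protein ferritin, rose. IRT1, the root iron importer, was at 9.21, 2.13 and 3.56 FPKM in untreated and 0.8, 0.43 and 0.13 in treated libraries, and untreated replicate 1 was the highest. BHLH39, a regulator of IRT1, was at 3.73, 2.57 and 1.55 and at 0.78, 0.51 and 0.98 FPKM. Both passed the filter on low values only through the untreated libraries, so they had to differ and their calls are no support for the list. The other 2 were NAS4, a synthase of the metal chelator nicotianamine, which fell from 14.1 ± 1.03 to 7.08 ± 2.73 FPKM and was in the leave-one-out set, and BTS, a regulator of the iron response, whose adjusted call (-0.47) held in 1 of the 6 fits with a library left out. FER1 was at 76.6, 117 and 130 FPKM in untreated and 193, 191 and 184 in treated libraries (0.86 ± 0.21, adjusted p = 0.017, lost without Brz-treated replicate 2 or 3). Of 8 compared sulphur genes 0 were called on both scales (limma), with 3 lower as deposited and a median length-adjusted log2 fold change of -0.23.

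Of 12 compared nitrate genes 4 fell and none rose. NRT1.5, which loads nitrate into the xylem, was at 58.8, 61.2 and 45.2 FPKM in untreated and 14.9, 9.58 and 11.6 in treated libraries, with log2 fold changes of -2.11 ± 0.17 and -1.68 ± 0.11 after adjustment (adjusted p = 0.00021). Of 10 phosphate genes 4 fell and none rose. Among the 4, MGD3 was at 2.26, 5.62 and 2.25 FPKM in untreated and 0.62, 0.15 and 0.89 in treated libraries. It passed the filter on low values only through the untreated libraries, so its call is no support for the list. Its adjusted call was also lost in each of the 6 fits with a library left out. PHT1;1, a phosphate importer, fell from 57.3 ± 8.45 to 20.2 ± 3.54 FPKM and PHO1, a phosphate exporter to the xylem, from 25.7 ± 1.8 to 10 ± 4.04. NRT1.5, PHT1;1 and PHO1 were in the leave-one-out set. SQD2, of sulpholipid synthesis, fell from 47.2 ± 11.7 to 15.9 ± 3.32 FPKM (-1.07 ± 0.25, adjusted p = 0.016, lost without Brz-treated replicate 2).

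Of 16 compared cuticle and wax genes 6 fell and 1, LTP2, rose, but only 1 of the 16 was in the leave-one-out set. With a library left out, the adjusted calls of CER2, KCS1, LACS2 and LTP2 each held in 1 of the 6 fits. That of CER6 held in 4. GPAT4, an acyltransferase of cutin synthesis, was at 62.7, 68.0 and 96.4 FPKM in untreated and 32.9, 30 and 29.9 in treated libraries (-0.93 ± 0.22 after adjustment, adjusted p = 0.016, leave-one-out set). Of 10 compared stomatal-lineage genes 1 fell, near the 8.32% of all compared genes, and none rose. That gene, SPCH, which starts the lineage, was at 3.93, 3.39 and 3.84 and at 1.99, 1.23 and 1.08 FPKM (-0.73 ± 0.12, adjusted p = 0.0044). Of 5 compared meristem and boundary genes 1 fell and 1 rose. KNAT1, a meristem homeobox gene, fell from 7.39 ± 0.626 to 2.39 ± 1.12 (-1.0 ± 0.13, adjusted p = 0.0024). SPCH and KNAT1 were in the leave-one-out set and did not overlap. LOB, a boundary gene, rose from 2.5 ± 0.225 to 4.25 ± 0.185 FPKM (0.42 ± 0.12 after adjustment, adjusted p = 0.03), a call that held after adjustment in 1 of the 6 fits with a library left out.

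Among cell-cycle genes SMR5, a SIAMESE-related inhibitor of cyclin-dependent kinases, was listed at 0 in the 3 untreated libraries and at 4.56, 6.56 and 8.36 FPKM in the treated ones. Its transcript has 266 bases. It passed the filter on low values only through the treated libraries, so its call is no support. Of the 16 such inhibitors 1 more was called higher on both scales, AT5G40460, near the 7.63% of all compared genes. It was at 2.65 ± 0.37 FPKM in untreated and 5.26 ± 1.47 in treated libraries. With a library left out, its call held in 4 of the 6 fits as deposited and in 2 after adjustment. Of 19 compared cyclins, kinases and replication genes 2 fell, near the 8.32% of all compared genes, and none rose. Of 8 commonly used reference genes, chosen after the data were seen, only UBC9 was called on both scales, from 78.8 ± 4.74 to 142 ± 8.33 FPKM.

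Ranked by length-adjusted difference among the genes called on both scales, with a higher group mean of at least 5 FPKM and no overlap between groups, the largest increase was that of AT5G57785, an uncharacterized gene. It was at 79.7, 113 and 91.2 FPKM in untreated and 504, 841 and 808 in treated libraries (2.84 ± 0.27 after adjustment, adjusted p = 0.0016). ACS11, an enzyme of ethylene synthesis, rose from 6.77 ± 1.07 to 23.9 ± 2.21 FPKM, DI21, a drought-induced gene, from 51.0 ± 4.40 to 244 ± 62.4, and PR4, a chitin-binding defence protein, from 44.3 ± 9.65 to 185 ± 47.8. Downward, AT1G66100, annotated as a thionin, was at 3.69, 6.81 and 7.90 FPKM in untreated and 0.72, 1.01 and 0.77 in treated libraries (-2.20 ± 0.24, adjusted p = 0.0016). With treated values this low, the size of its fall depends on the 1 added to FPKM. RGF9, a root growth factor peptide, fell from 40.9 ± 12.9 to 16.2 ± 6.30. These genes were in the leave-one-out set. PER4, a peroxidase, was at 20, 2.5 and 2.46 FPKM in untreated libraries, and its adjusted value of -1.8 moved to -0.94 without Col-0 replicate 1. Its call was lost without any 1 of the treated libraries. The 30 genes, 15 in each direction, are in the plot of the largest differences.

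Of those 30, 7 have transcripts under 500 bases, a range in which medians moved below 0 with adjustment. Among 56 compared genes under 300 bases the median log2 fold change was 0.16 as deposited and -0.79 after adjustment, and -0.15 when medians of 100 length bins were removed in its place, an alternative chosen after seeing the data. With these bins AT4G38775, an uncharacterized gene of 415 bases with the largest decrease, went from -2.75 to -2.26 and AT5G65613 from -2.05 to -1.49. As deposited they fell by 1.95 and by 1.18. AT4G38775 was at 0.59, 1.16 and 0.23 FPKM in treated libraries, so the size of its fall also depends on the 1 added to FPKM.

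**Figure D5:**
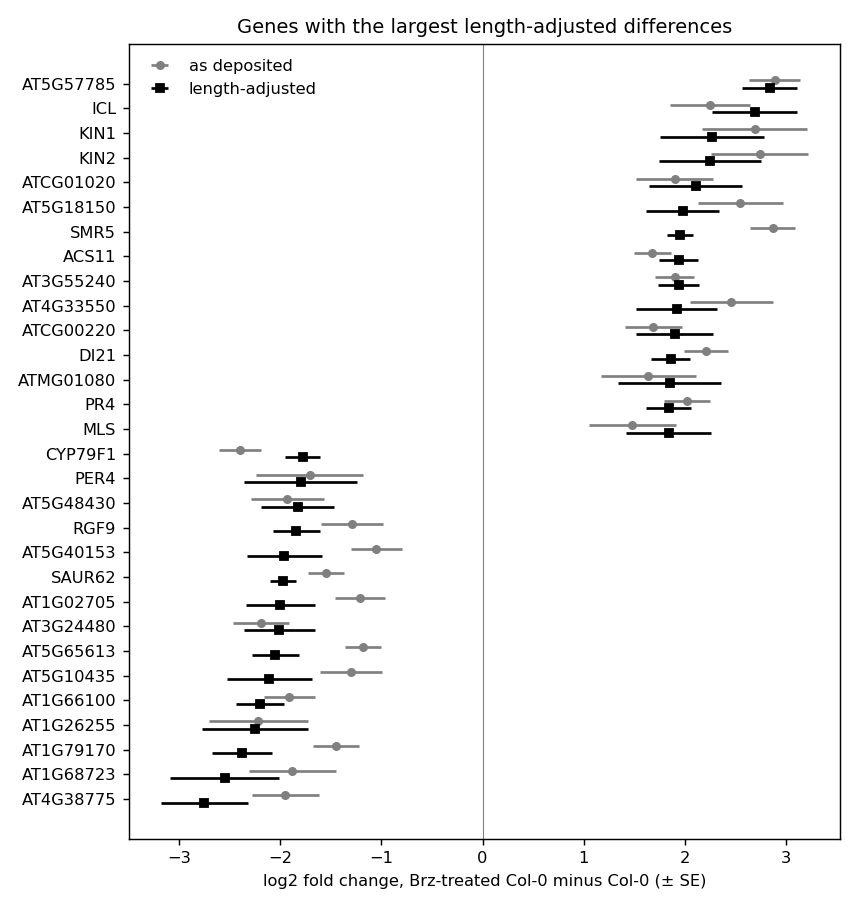
Log2 fold change (Brz-treated minus untreated Col-0, on log2(FPKM + 1)) with its standard error for the 15 genes highest and 15 genes lowest by length-adjusted difference. Grey circles are as deposited and black squares length-adjusted. Values after adjustment run from -2.75 for AT4G38775 to 2.84 for AT5G57785. SMR5 is listed at 0 in untreated libraries, so its value depends on the pseudocount, the 1 added to FPKM. AT5G48430 was at 0.73, 0.34 and 0.59 FPKM in treated libraries, so its value also depends on the pseudocount. It passed the filter on low values only through the untreated libraries, so its call is no support.

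Marker genes of tissues and cell types were summed per library. Green-tissue markers (5) summed to 39269 to 47087 FPKM in untreated and 43953 to 54813 in treated libraries, and 6 root markers to 94.2 to 206 and 168 to 244, so that both overlapped. Untreated replicate 1 had the lowest root sum, and TIP2;3, a root aquaporin, rose by 1.09 after adjustment but was at 0.65 without that library, where it was not called (nor without Brz-treated replicate 2 or 3). Stomatal markers (4) summed to 21.8 to 26.4 and 10.9 to 16.4, and 3 xylem markers to 45.7 to 53.0 and 35.1 to 41.8, without overlap. Of these, 4 of 4 and 2 of 3 were called lower as deposited, where 29.1% of all compared genes were. On both scales 1 and 0 were, against 8.32% of all compared genes. Phloem markers (3) summed to 120 to 134 and 102 to 130. None was at 0 in all untreated libraries. In whole seedlings fewer cells of a type and less RNA per cell cannot be told apart, and the part of tissue make-up in the results above was not tested.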

How the data were processed

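Total RNA of whole seedlings gave mRNA libraries (TruSeq kit, per the labels' protocols). FPKM values per locus, computed by the authors, were deposited as 1 table. The submitters' processing notes name Bowtie2 and HISAT but neither their roles nor their versions. Build, annotation, the program behind FPKM and strand use are not given in the sources used, so reads of near-identical, overlapping or antisense genes may lie with either gene. FPKM values are not counts, so no count test was run. Low values lay within 0.1 of a whole read for 86.0% to 88.7% of those used, which gave the fitted depth and is not exact enough to recover reads.

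Names, transcript lengths and sequences came from RefSeq TAIR10.1 by locus (27438 of 27647 matched). Tests were made on log2(FPKM + 1), a scale that understates the change of low genes. The test was limma's moderated test (3.58.1 in R 4.3.3, trended prior variance), two-sided, on group means of all 9 libraries, leaving 6 residual degrees of freedom, with Benjamini-Hochberg adjustment over 17299 genes. The length-adjusted scale subtracted from each library a loess trend (span 0.5) on log2 transcript length. The trend was that of the library's deviation from the gene mean over all 9 libraries. The 122 compared genes without a length took the library's median shift. Simulated data were used to test the scripts.

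Genes named were the 15 largest length-adjusted differences in each direction among genes called on both scales (group mean of at least 5 FPKM, no overlap between groups), the 3 genes per list ranked first by length-adjusted p, and further called members of the lists. The members and lists were chosen with earlier results of these data known, and lists are described by counts and medians beside all compared genes. Deviations of same-numbered libraries from their group means had correlations of 0.04, -0.23 and 0.15 as deposited. After adjustment the correlations were 0.08, -0.25 and 0.21. The samples were not treated as paired, although with 3 libraries a group such correlations cannot exclude pairing.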

Additional observations from a re-analysis of the deposited data

How the results depend on the processing

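Of 4 counts, the calls higher as deposited (2337) became 4135 with median-ratio scaling, 3734 with quantile normalization and 1303 at an adjusted p under 0.01. The calls lower (5027) became 8720 with library weights and 2598 at 0.01. With a filter at 5 FPKM the calls lower became 3298, but of 11269 tested genes in place of 17299. After length adjustment the calls higher (2204) became 3802 with library weights and 657 at 0.01. With no filter they became 3409, but of 23870 tested genes. The adjusted calls lower (1933) became 3571 with library weights and 555 at 0.01. With replicate number as a block, which the main test did not use, the calls became 1376 higher and 1102 lower after adjustment. As deposited they became 1918 and 4095. Leaving out 1 library at a time gave 1570 to 2320 higher and 2643 to 7095 lower as deposited, and 777 to 2459 higher and 735 to 2102 lower after adjustment. Leaving out both MIR394A OE replicate 3 and Col-0 replicate 2 (chosen after seeing the data, as were the 100 bins), the adjusted counts were 1994 and 2075, and with 100 length bins 2042 and 1901. The other alternatives (no intensity trend, pseudocounts of 0.1 and 5, only 6 libraries, spans of 0.3 and 0.75, 20 length bins) moved no count by over 1.5 times. The cause of these shifts was not tested.

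The sign turned for CYP90D1 as deposited (0.11 with median-ratio scaling, 0.23 with quantile normalization, -0.16 to 0.08 leaving out 1 library and 0.08 leaving out that pair of libraries), and for BR6OX1 as deposited (0.01 and 0.12 with these scalings). It turned after adjustment with quantile normalization for LHCB5 (-0.02), PSBR (-0.05) and PSAE1 (-0.09), all called higher in the main comparison. The 30 genes with the largest differences kept their direction in every alternative run. They were picked from these data for large differences without overlap between groups, so this is no support for them. FPKM to 2 decimals and 3 libraries a group limit low genes most.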

Other observations

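Large gene families differed in how far transcript length entered. Of 294 compared genes annotated as ribosomal proteins without an organelle in the product name, 111 rose on both scales and 4 fell. In the leave-one-out set were 48 and 2, where 2.57% and 2.52% of all compared genes were. A list made by product name may take in some genes that are not cytosolic ribosomal proteins. The ribosomal protein gene AT5G60670 was at 53.8, 48.4 and 47.9 FPKM in untreated and 106, 117 and 115 in treated libraries (0.95 ± 0.12 after adjustment, adjusted p = 0.0024). A further 9 of 18 organellar ribosomal protein genes rose and none fell. Transcripts of these lists are short, with medians of 1008 and 959 bases, and the median log2 fold changes went from 0.55 to 0.29 and from 0.60 to 0.32 with adjustment.

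Lists with long transcripts held many lower genes as deposited. Of 86 compared leucine-rich repeat receptor kinases 62 were lower as deposited (29.1% of all compared genes were), 10 on both scales (8.32% of all) and 0 in the leave-one-out set, with medians of -0.70 and -0.05. Of 7 genes of microRNA processing and action 5 were lower as deposited and 0 on both scales. DCL1, which cuts microRNA precursors, was at 2.35 ± 0.274 and 0.897 ± 0.333 FPKM, -0.83 ± 0.17 as deposited (adjusted p = 0.0028) and 0.27 ± 0.11 after adjustment (adjusted p = 0.090). Of 132 compared genes with cytochrome P450 in the product name, 20 fell and 3 rose on both scales (8.32% and 7.63% of all compared genes did). CYP79F1 was among the former and DWF4 among the latter. A list made by product name misses some P450 genes, BR6OX2 among them, so the counts are not those of the whole family.

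Of 77 compared plastid loci 26 were higher and 3 lower as deposited, where 13.5% and 29.1% of all compared genes were. On both scales 25 were called higher and none lower. In the leave-one-out set were 2 of the 77 (2.6%), the same share as that of all compared genes (2.57%). Of 45 mitochondrial loci 16 rose and none fell, as deposited and on both scales, with 4 (8.89%) in the leave-one-out set. ATCG00220 was at 2348, 2124 and 2375 FPKM in untreated and 4080, 10648 and 9229 in treated libraries (1.90 ± 0.38 after adjustment, adjusted p = 0.0087). Treated replicate 1 was the lowest treated library there. These loci had no transcript length in the reference, so the adjustment only shifted them by the library median. For them the adjusted scale is therefore no separate test. Their shares on both scales and in the leave-one-out set are not comparable with those of all compared genes.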
